A study of Capra hircus with 10 samples.

Results

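The genes described are 9 members of the TGF-beta pathway in goat mammary gland cells: the ligand genes TGFB1, TGFB2, TGFB3 and INHBA, the receptor genes TGFBR1 and TGFBR2, the signal transducer SMAD3, the inhibitory SMAD7 and the matrix gene TGFBI. They were chosen by symbol, with earlier results of these data known. Each was found in the expression table by the NCBI gene identifier of the goat gene, so that they make up 9 of 17197 genes. All 9 passed the filter on low values. The cells came from Lanshan dairy goats and were cultured in 3D, and 10 libraries of their total RNA were sequenced. The study manipulated the long noncoding RNA lncRNA55666 by virus and compared the gene expression of the resulting groups.

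The 5 groups had 2 libraries each. Blank cells carry the genotype label control, Lv5NC cells the label 5NC and Lv3NC cells the label 3NC. OV55666 cells overexpressed lncRNA55666 and KD553 cells had it knocked down. The series text names 5NC just before the overexpression and 3NC just before the knockdown, and each was used as the control of the manipulation it precedes. Lv5NC, OV55666, Lv3NC and KD553 are called virus groups here, although a virus is stated in words for the manipulations alone. The sources used here give no virus dose, culture time or donor number. The table has no row named for lncRNA55666, so its level is not analysed here and neither manipulation was checked. Whether the libraries of a group stem from different cultures or animals is not labelled, and every p-value therefore reflects a spread among libraries that could be purely technical. The number behind a group name, as in KD553 1, names a library and carries no order.

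TGF-beta is secreted in a latent form, held in the matrix by binding proteins, and acts once it is released. The active ligand binds the type II receptor TGFBR2, which recruits and phosphorylates the type I receptor TGFBR1. TGFBR1 then phosphorylates SMAD2 and SMAD3, which enter the nucleus with SMAD4 and change transcription. SMAD7 is among the genes they induce, and its protein blocks the type I receptor in turn. In the mammary gland the pathway is known for restraining duct growth and milk protein production and for driving matrix deposition by stromal cells.

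Values are FPKM, fragment numbers scaled to transcript length and to the mapped fragments of the library, and allow levels to be compared between genes. The depth in reads is unknown. The labelled cell type was checked against marker genes. Of 8 luminal epithelial markers 7 were below 1 FPKM in every library, and CLDN4 reached at most 1.04. All 9 fibroblast markers were at 1 FPKM or more in every library. Of the basal or myoepithelial markers, KRT14 and TP63 were at most 0.09 and 0.05 FPKM, whereas the contractile genes ACTA2 and MYLK lay between 668 and 1247 and between 208 and 553. No library reached 1 FPKM for any of 5 endothelial and 3 adipocyte markers or for 3 of 5 leukocyte markers, whereas CD14 lay between 16.9 and 37.2. In bulk RNA, fewer cells of a type and less RNA per cell cannot be told apart. Blank 2 stood apart from the other libraries in smooth muscle genes, with a summed level of the basal or myoepithelial markers of 1800 FPKM against 1092 in Blank 1 and 888 to 1254 in the virus libraries.

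Across the 9 genes the level spanned a wide range. TGFBI was the most abundant, with a mean of 253 FPKM over the 10 libraries, a level above that of 98.0% of the genes tested. TGFB1 followed with 43.0 FPKM, TGFBR2 with 26.6, INHBA with 15.3, TGFBR1 with 11.5 and SMAD7 with 10.9. TGFB3 was at 6.45, SMAD3 at 4.82 and TGFB2 at 2.65 FPKM on average. Every member was above 1 FPKM in every library.

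**Figure D1:**
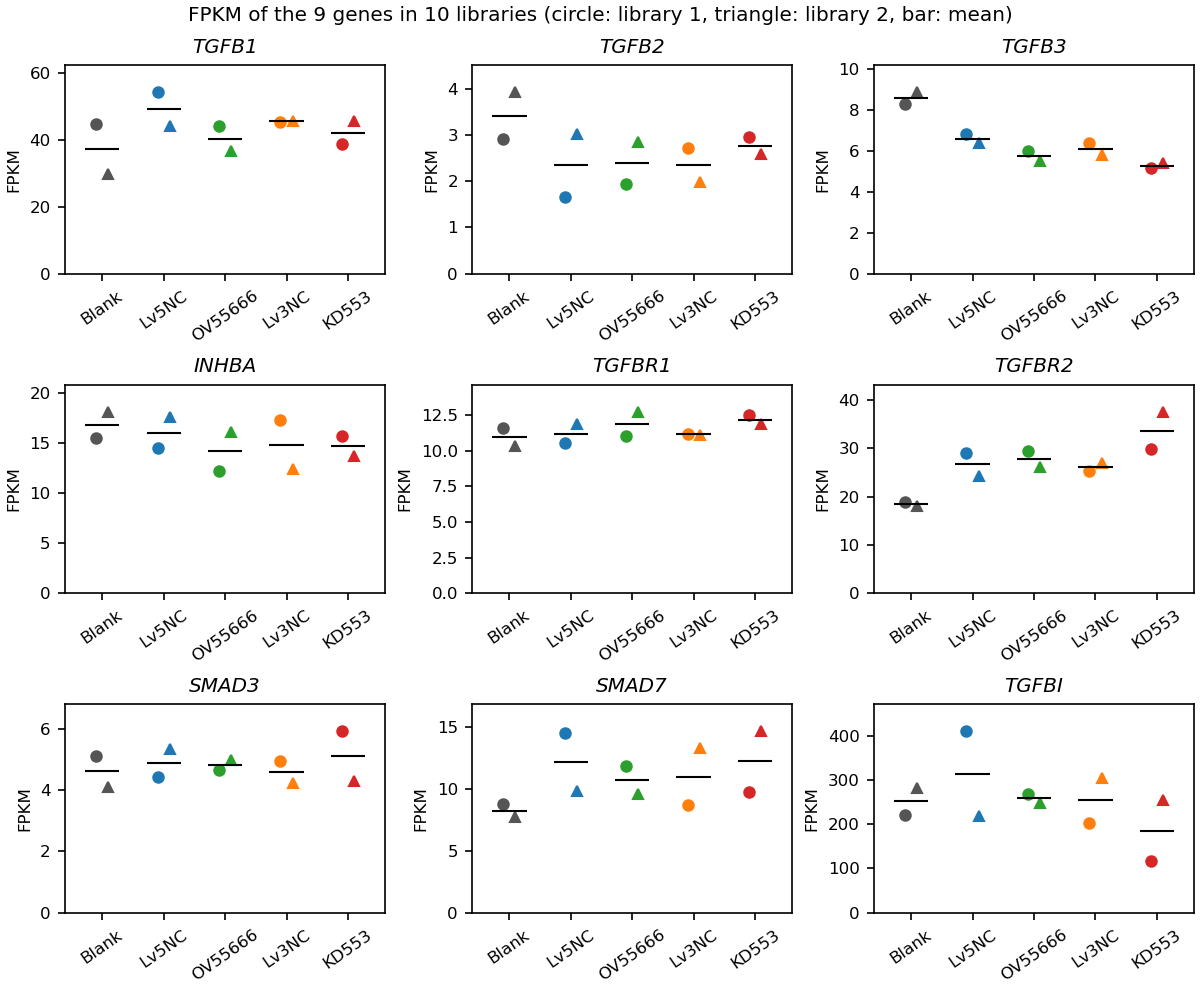
FPKM of the 9 genes on the vertical axis of each panel, with the 5 groups on the horizontal axis. Each point is a library and each bar the mean of 2 libraries. TGFBR2 is lowest and TGFB3 highest in both Blank libraries, and TGFBI ranges from 116 to 409.7 FPKM.

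The 3 TGFB genes encode ligand isoforms that share their receptors. TGFB1 was at 44.9 and 29.9 FPKM in Blank, 54.2 and 44.2 in Lv5NC, 44.1 and 36.7 in OV55666, 45.5 and 45.7 in Lv3NC and 38.8 and 45.6 in KD553. Blank 2 was the lowest library and Lv5NC 1 the highest, and the ranges of most groups overlapped. Against Lv5NC, the overexpressing cells had less TGFB1 in both libraries (log2 difference −0.28 ± 0.19, SE), a difference that did not pass the test (limma adjusted p = 1). Of all genes tested, 9.07% were lower without overlap in this comparison. For TGFB1 the ranges barely separated, with 44.12 FPKM in OV55666 1 and 44.18 in Lv5NC 2. The knockdown differed from Lv3NC by −0.11 ± 0.19 (adjusted p = 0.952).

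TGFB3 had the narrowest replicate spread of the ligands, with the libraries of a group within 1.10-fold of each other in every group. It was at 8.30 and 8.85 FPKM in Blank, 6.81 and 6.36 in Lv5NC, 6.36 and 5.80 in Lv3NC, 5.98 and 5.48 in OV55666 and 5.14 and 5.41 in KD553. Both Blank libraries lay above all 8 virus libraries, and both KD553 libraries lay below the other 8. Over all genes tested, 8.4% were likewise lower in all virus libraries than in both Blank libraries, and 3.79% were lowest in both KD553 libraries. The order of the group means was Blank, Lv5NC, Lv3NC, OV55666 and KD553, with a ratio of 1.63 from the highest to the lowest. No step between neighbours in this order passed the test. The step from Blank to Lv5NC was −0.34 ± 0.08 on the log2 scale (adjusted p = 0.131). That from OV55666 to KD553 was −0.10 ± 0.08 (adjusted p = 0.884), without overlap of the libraries, as for 17% of all genes in that direction. Among all 10 pairs of groups, only KD553 and OV55666 against Blank passed, as given with those comparisons.

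TGFB2 was the least abundant isoform. Its levels were 2.92 and 3.92 FPKM in Blank, 1.66 and 3.02 in Lv5NC, 1.93 and 2.85 in OV55666, 2.72 and 1.98 in Lv3NC and 2.95 and 2.58 in KD553. Lv5NC held both the lowest and the highest of the virus libraries, which were 1.82-fold apart. The group means were within 1.46-fold, and 0 of 10 pairs of groups passed the test.

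As shares of the summed FPKM of the 3 isoforms, TGFB1 made up 80.0% and 70.1% in Blank 1 and Blank 2 and 81.5% to 86.5% in the virus libraries. TGFB3 made up 14.8% and 20.7% in Blank and 10.1% to 12.2% in the virus libraries, so the ranges did not overlap. The share of TGFB2 was 5.20% and 9.18% in Blank and 2.65% to 6.33% in the virus libraries, which overlapped. The summed level itself was 56.1 and 42.7 FPKM in Blank and 45.0 to 62.7 in the virus libraries. These shares were compared by range alone.

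INHBA encodes the beta A subunit of activins and inhibin A, ligands that signal through their own receptors to SMAD2 and SMAD3. It was at 15.5 and 18.1 FPKM in Blank, 14.5 and 17.6 in Lv5NC, 12.2 and 16.2 in OV55666, 17.3 and 12.4 in Lv3NC and 15.7 and 13.7 in KD553. Every pair of groups overlapped. The group means lay within 1.19-fold of each other, and 0 of 10 pairs passed the test.

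Of the receptors, TGFBR1 was steady and TGFBR2 was not. TGFBR1 was at 11.6 and 10.3 FPKM in Blank, 10.53 and 11.89 in Lv5NC, 11.1 and 12.7 in OV55666, 11.2 and 11.1 in Lv3NC and 12.5 and 11.9 in KD553. Its 10 values lay within 1.23-fold of each other. In the knockdown it differed from Lv3NC by 0.12 ± 0.10 on the log2 scale (adjusted p = 0.853), with a 95% interval of −0.10 to 0.33.

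TGFBR2 was at 19.0 and 18.1 FPKM in Blank, 29.1 and 24.3 in Lv5NC, 29.4 and 26.1 in OV55666, 25.3 and 27.0 in Lv3NC and 29.8 and 37.5 in KD553. Both Blank libraries were below all 8 virus libraries, and both KD553 libraries were above the other 8. Of all genes tested, 6.51% were higher in all virus libraries than in both Blank libraries, and 5.94% were highest in both KD553 libraries. The order of the group means was KD553, OV55666, Lv5NC, Lv3NC and Blank, with a ratio of 1.82 between the ends. OV55666, Lv5NC and Lv3NC overlapped. The ranges of KD553 and OV55666 did not overlap, as was so for 19.2% of all genes in that direction, but their difference did not pass the test (0.26 ± 0.12, adjusted p = 0.813). Of all genes, 0.00882% passed between KD553 and OV55666. Lv3NC minus Blank did not pass either (0.48 ± 0.12, adjusted p = 0.161).

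The ratio of TGFBR2 to TGFBR1 was 1.64 and 1.76 in Blank and 2.04 to 3.16 in the virus libraries, with the highest value in KD553 2. Within Lv5NC it was 2.76 and 2.04, and within OV55666 2.66 and 2.05, so it varied between libraries of a group as well.

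**Figure D2:**
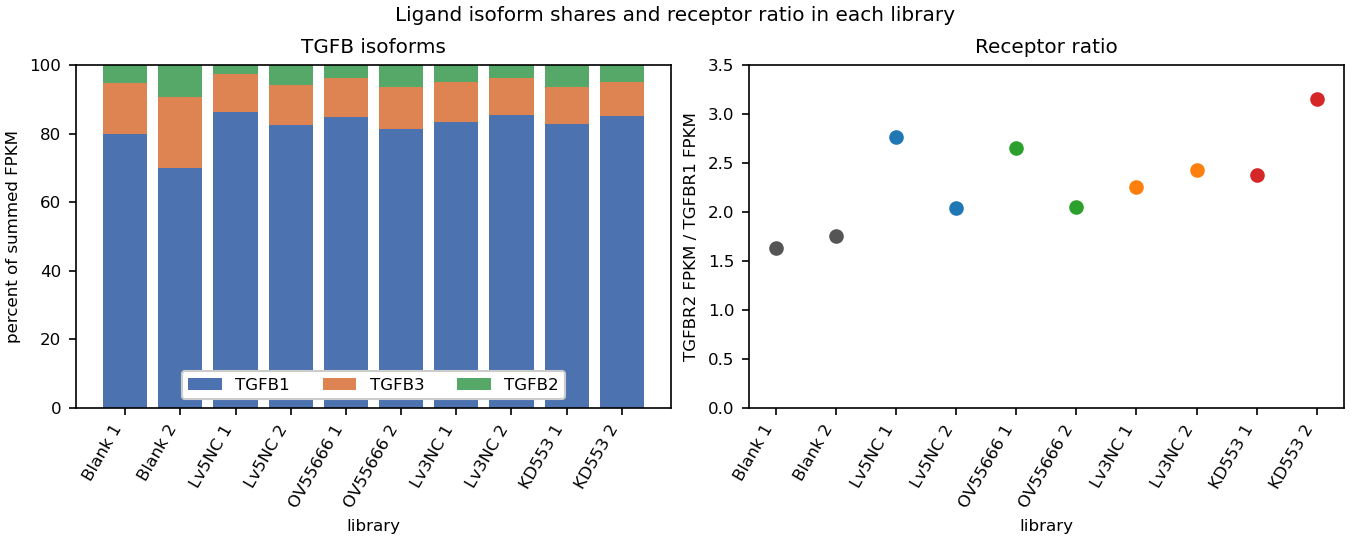
Left: share of TGFB1, TGFB3 and TGFB2 in the summed FPKM of the 3 ligand genes, in percent, for each library. Right: FPKM of TGFBR2 divided by that of TGFBR1 in each library. The TGFB3 share is highest (14.8% and 20.7%) and the receptor ratio lowest (1.64 and 1.76) in the Blank libraries.

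SMAD3, which carries the signal to the nucleus, was at 5.13 and 4.11 FPKM in Blank, 4.44 and 5.36 in Lv5NC, 4.67 and 5.01 in OV55666, 4.97 and 4.25 in Lv3NC and 5.93 and 4.30 in KD553. All groups overlapped, and the group means differed by at most 1.11-fold. The largest gap between libraries of a group, 1.38-fold in KD553, exceeded the gap between any group means.

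SMAD7 was at 8.75 and 7.69 FPKM in Blank, 14.5 and 9.79 in Lv5NC, 11.9 and 9.60 in OV55666, 8.67 and 13.3 in Lv3NC and 9.78 and 14.6 in KD553. In 3 of the 4 virus groups, the library levels differed by about as much as the group means did, and Lv3NC 1 lay between the Blank libraries. The mean over the virus libraries was 11.5 ± 2.4 FPKM (SD, n = 8) against 8.22 ± 0.75 (n = 2) in Blank, a difference that did not pass the test (0.42 ± 0.20, limma adjusted p = 0.311). The ratio of SMAD7 to SMAD3 ran from 1.65 in KD553 1 to 3.40 in KD553 2, so this group held both ends of its range.

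TGFBI encodes a secreted matrix protein that binds integrins and collagen and is induced by TGF-beta. Its levels were 222 and 282 FPKM in Blank, 409.7 and 219 in Lv5NC, 269 and 247 in OV55666, 203 and 305 in Lv3NC and 116 and 254 in KD553. The highest library exceeded the lowest by 3.53-fold, and KD553 alone spanned 2.19-fold. The means of 185 ± 98 FPKM in KD553 and 254 ± 72 in Lv3NC (SD, n = 2 each) differed by −0.53 ± 0.42 on the log2 scale (adjusted p = 0.852). The 95% interval of that difference, −1.51 to 0.44, holds both a large fall and a rise.

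The overexpression was compared with Lv5NC on the log2(FPKM + 1) scale. With limma, 0 of the 9 genes passed an adjusted p under 0.05, and 0 had an unadjusted p under 0.05. Of the 11340 genes tested, 0% passed, and 166 had an unadjusted p under 0.05. In these cells 3 members were higher and 6 lower than in Lv5NC (58.7% of all genes were higher), with a median log2 difference of −0.15 beside 0.02 over all genes. Lv3NC, without the overexpression, likewise had 1 member higher and 8 lower than Lv5NC (59.8% of all genes were higher). Its median was −0.10 beside 0.02 over all genes. TGFB1 and TGFB3 lay lower in both OV55666 libraries than in both Lv5NC libraries. For TGFB3 the difference was −0.17 ± 0.08 (adjusted p = 1), and 9.07% of all genes were lower without overlap in this comparison.

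The knockdown was compared with Lv3NC. Again 0 of the 9 genes passed, against 0.0705% of all genes tested. TGFBR2 was the member with the smallest p: 33.7 ± 5.5 FPKM against 26.2 ± 1.2 (SD, n = 2 each), a log2 difference of 0.34 ± 0.12 with an unadjusted p of 0.0215 in limma and an adjusted p of 0.568. Of all genes, 7.52% had an unadjusted p under 0.05 here. TGFBR1 and TGFBR2 were higher in both knockdown libraries than in both Lv3NC libraries, as were 19.3% of all genes, and TGFB3 and no other member was lower in both, as were 18.3%. TGFB3 differed from its level in Lv3NC by −0.17 ± 0.08 (adjusted p = 0.695), which is the size it had with overexpression. Members above 0 numbered 6 and those below 3, with a median of 0.11 beside 0.00 over all genes. Against Lv5NC in place of Lv3NC, 0 members passed, beside 0.0176% of all genes, and TGFBR2 and TGFB3 had an unadjusted p under 0.05 (limma adjusted p = 0.535 and 0.426).

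A test of whether both manipulations had different effects gave 0 members with an adjusted or an unadjusted p under 0.05, beside 0% of all genes called and 386 genes with an unadjusted p under 0.05. For TGFBR2 the effect of overexpression minus that of knockdown was −0.29 ± 0.18 on the log2 scale (adjusted p = 1). For TGFB3 it was 0.00 ± 0.12, with a 95% interval of −0.27 to 0.27.

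The control groups were compared with Blank, which serves both comparisons. Lv5NC and Lv3NC each differed from Blank with 0 members called in limma, beside 0.291% and 0.132% of all genes called. In both comparisons TGFB3 and TGFBR2 were the only members with an unadjusted p under 0.05, beside 12.6% of all genes for Lv5NC and 14.8% for Lv3NC. TGFB3 was at 6.58 ± 0.32 FPKM in Lv5NC and 6.08 ± 0.40 in Lv3NC against 8.57 ± 0.39 in Blank (SD, n = 2 each), with an adjusted p of 0.131 and 0.0979 in limma. TGFBR2 was at 26.7 ± 3.4 and 26.2 ± 1.2 FPKM against 18.5 ± 0.6, with an adjusted p of 0.13 and 0.161 in limma. Lv3NC against Lv5NC had 0 members with an adjusted or unadjusted p under 0.05, beside 0% of all genes called and 303 with an unadjusted p under 0.05.

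Against Blank, the knockdown cells had more TGFBR2 and less TGFB3. TGFBR2 rose by 0.82 ± 0.12 on the log2 scale (limma adjusted p = 0.0136) and TGFB3 fell by 0.61 ± 0.08 (limma adjusted p = 0.0101). These were 2 of 9 members called, beside 2.52% of all genes tested. Because the members were chosen with earlier results of these data known, such shares are no test of the list, here or in the comparisons below. The other 7 members did not pass, with SMAD7 at 12.2 ± 3.4 FPKM against 8.22 ± 0.75 (adjusted p = 0.357). A comparison with Blank does not separate the knockdown from the virus. Lv3NC already differed from Blank by 0.48 for TGFBR2 and −0.44 for TGFB3. Between KD553 and Lv3NC neither gene passed (limma adjusted p = 0.568 and 0.695). Both calls against Blank depended on single libraries. Without Blank 2 the adjusted p became 0.0981 for TGFBR2 and 0.0755 for TGFB3, and without KD553 2 it became 0.0929 and 0.0509, with differences of 0.79 and −0.57, and of 0.66 and −0.64.

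The overexpression cells also had less TGFB3 than Blank, by −0.51 ± 0.08 on the log2 scale (limma adjusted p = 0.0493), the 1 member called beside 0.379% of all genes. That call held in only 3 of 15 other settings. It does not separate the overexpression from the virus, and Lv5NC already differed from Blank by −0.34 for TGFB3. TGFBR2 was higher by 0.56 ± 0.12 but did not pass (adjusted p = 0.119).

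When the 4 virus groups were averaged and set against Blank, a comparison added after the values were seen, the same 2 members were called, beside 2.78% of all genes tested. TGFBR2 was at 28.6 ± 4.1 FPKM (SD, n = 8) against 18.5 ± 0.6 (n = 2) and rose by 0.59 ± 0.10 on the log2 scale (limma adjusted p = 0.0214). TGFB3 was at 5.92 ± 0.57 FPKM against 8.57 ± 0.39 and fell by 0.47 ± 0.07 (limma adjusted p = 0.0116). All comparisons with Blank share its 2 libraries. Without Blank 2, which has the high smooth muscle genes, the differences were 0.56 and −0.43 and neither passed (adjusted p = 0.247 and 0.167). Over all genes that setting left 5 calls, and leaving out Blank 1 gave 702. Without Lv3NC 2 the adjusted p of TGFBR2 was 0.0508. The Blank libraries differed from each other by 1.05-fold for TGFBR2 and by less than 1.10-fold for TGFB3, and the part of the smooth muscle genes in either difference was not tested.

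**Figure D3:**
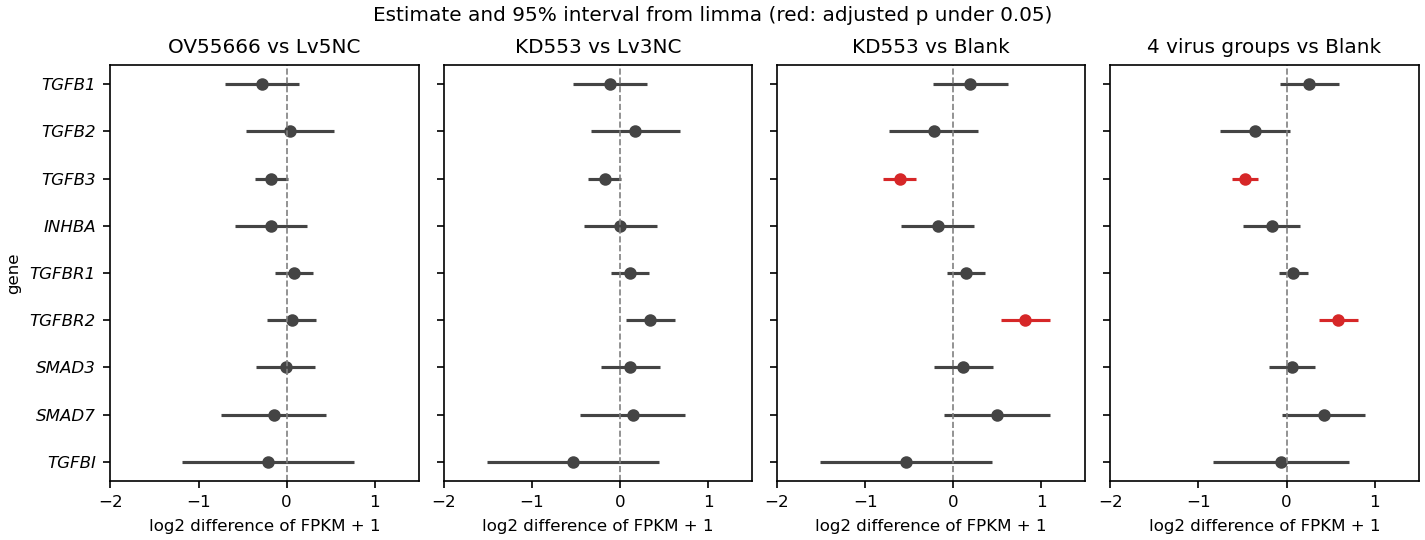
Log2 difference of FPKM + 1 (horizontal axis) with its 95% interval from limma for the 9 genes in 4 comparisons. Red marks an adjusted p under 0.05. Against the virus controls every member is grey, and against Blank TGFB3 lies below 0 and TGFBR2 above 0 in red.

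Within groups, several members shifted together, which was not particular to them. Over the 11340 genes tested, the differences between library 1 and library 2 correlated at 0.50 between Lv5NC and OV55666. The correlation was 0.44 between Lv3NC and KD553 and −0.62 between Lv5NC and KD553. Whether the members shifted more than other genes was not tested. In Lv5NC, OV55666, Lv3NC and KD553 the library with more SMAD7 also had more TGFBI and more TGFBR2, and less TGFB2, INHBA and SMAD3. In Lv5NC, library 1 exceeded library 2 by 0.52 on the log2 scale for SMAD7, 0.90 for TGFBI and 0.25 for TGFBR2, and was lower by −0.60 for TGFB2 and −0.27 for INHBA. In KD553, library 1 was lower than library 2 by −0.54 for SMAD7, −1.13 for TGFBI and −0.32 for TGFBR2. For TGFBI the difference within KD553 or Lv5NC was thus larger than that between any of the group means tested. Blank did not follow the shared pattern for TGFBI and SMAD3. Its library with more SMAD7 had less TGFBI (−0.34) and more SMAD3 (0.26).

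**Figure D4:**
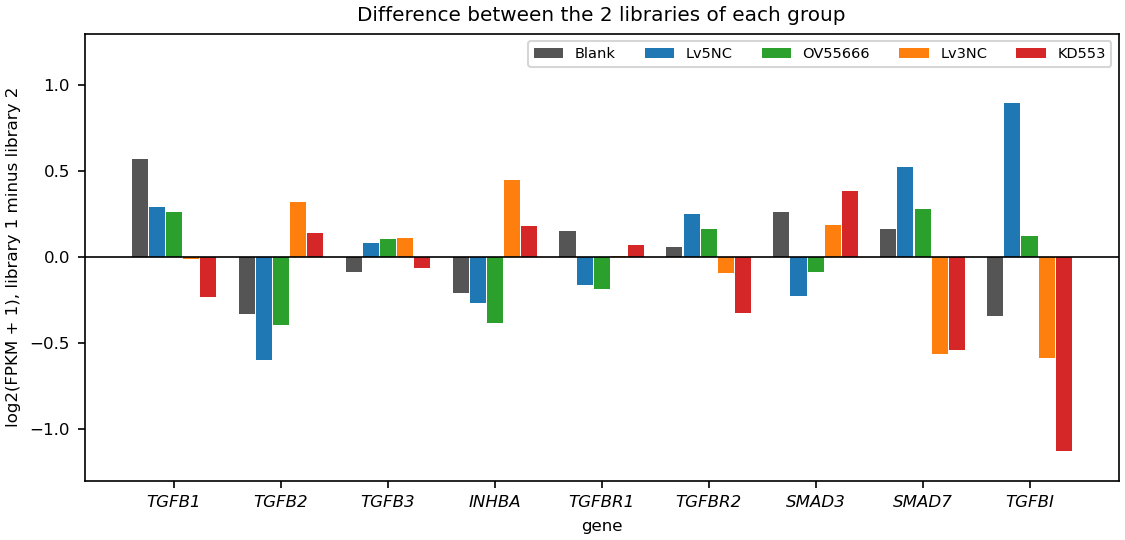
Log2(FPKM + 1) of library 1 minus that of library 2 (vertical axis) for each of the 9 genes, with a bar for each group. SMAD7, TGFBI and TGFBR2 share their sign within each virus group, opposite to that of TGFB2 and INHBA, and the TGFBI bars reach 0.90 in Lv5NC and −1.13 in KD553.

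Over the 10 libraries, which share groups and library preparation, the members' levels on the log2 scale correlated as a description only. The highest Pearson r were 0.80 between TGFB2 and INHBA, 0.79 between TGFBR2 and SMAD7, 0.70 between TGFBR1 and SMAD3 and 0.69 between TGFB1 and SMAD7. The lowest were −0.85 between TGFB3 and TGFBR2 and −0.82 between TGFB2 and SMAD7 and between SMAD3 and TGFBI.

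The 3 members with the largest SD of log2(FPKM + 1) over libraries, TGFBI, SMAD7 and TGFBR2, were compared with 6886 genes of at least 5 FPKM on average. The genes with the pattern most like that of TGFBI over the 10 libraries were GFER (Pearson r 0.92), DESI1 (0.91) and ADARB1 (0.91), all highest in Lv5NC 1 and lowest in KD553 1. Those most like SMAD7 were RAMP2 (0.96), LDLRAD3 (0.95) and CXCL16 (0.95). RAMP2, which partners the calcitonin-like receptor, ran from 48.5 to 92.8 FPKM. Those most like TGFBR2 were SMARCA5, a chromatin remodelling ATPase (0.97), ABLIM3, an actin-binding protein (0.96), and PTPN9, a tyrosine phosphatase (0.96), all lowest in Blank 2 and highest in KD553 2. These values describe likeness over 10 libraries that share groups, and no test was made of them. Genes picked for a high r tend to share the highest and lowest libraries of the member, so that sharing is no separate observation.

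Other genes of the pathway were taken from lists by role. Of 80 listed, 76 were in the table and 64 were tested. In limma, 0 of the 64 passed in each of the 6 comparisons among OV55666, KD553 and the controls described first. In KD553 against Blank, 2 of the 64 were called, both higher, beside 2.52% of all genes tested. In the 4 virus groups against Blank, 2 were called higher and 1 lower, beside 2.78% of all genes tested. With overexpression against Lv5NC, 2 of 64 had an unadjusted p under 0.05, as did 1.46% of all genes. In that comparison 30 were above 0 and 34 below, with a median of −0.01. With knockdown against Lv3NC, 3 of 64 had an unadjusted p under 0.05, as did 7.52% of all genes. Here 38 were above 0 and 26 below, with a median of 0.04. In the contrast of both effects, in Lv5NC against Blank, in Lv3NC against Blank and between the controls the unadjusted counts were 1, 14, 10 and 3, beside 3.4%, 12.6%, 14.8% and 2.67% of all genes tested.

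Genes of further ligands and of proteins that store or release latent TGF-beta had a wide range of RNA levels. The 3 with the highest means are given first. THBS1, a matrix protein that can activate latent TGF-beta, lay between 393 and 834 FPKM, the microfibril gene FBN1 between 263 and 363, and ITGAV, an integrin subunit that binds the latency peptide, between 56.5 and 71.9. In this role 10 of 15 genes in the table were tested. ITGB6 (at most 0.05 FPKM) and MSTN (at most 0.16) were among those too low to test. LTBP2, a relative of the latent TGF-beta binding proteins found on microfibrils, was at 43.7 and 40.2 FPKM in Blank, 62.2 and 56.4 in Lv5NC, 54.96 and 65.59 in OV55666, 64.3 and 64.7 in Lv3NC and 64.8 and 69.1 in KD553. All virus libraries were above both Blank libraries, as for 6.51% of all genes tested. LTBP2 rose in KD553 against Blank (0.66 ± 0.10, limma adjusted p = 0.0148) and in the 4 virus groups against Blank (0.57 ± 0.08, limma adjusted p = 0.0116). Without Blank 2 these became 0.60 and 0.51, with an adjusted p of 0.096 and 0.167, and without KD553 2 the first had an adjusted p of 0.104.

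Among the matrix proteins and secreted factors that bind the ligands, DCN lay between 1838 and 2489 FPKM, BGN between 626 and 923 and FMOD between 389 and 477, all proteoglycans with leucine-rich repeats. ASPN, a small proteoglycan that binds TGF-beta, was at 7.46 and 8.75 FPKM in Blank, 1.27 and 2.97 in Lv5NC, 3.35 and 2.21 in OV55666, 2.46 and 1.88 in Lv3NC and 5.10 and 2.40 in KD553. Every virus library was below both Blank libraries, as for 8.4% of all genes tested. ASPN fell by 1.35 ± 0.27 on the log2 scale in the 4 virus groups against Blank (limma adjusted p = 0.0445), and 12 of 21 other settings, leaving out Blank 1 (adjusted p = 0.0763) or Blank 2 (adjusted p = 0.348) among them, ended this call.

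Of the other receptors and coreceptors, ENG, a coreceptor with high levels in endothelial cells and stromal cells, lay between 108 and 186 FPKM and the type I receptor gene ACVR1 between 15.3 and 17.9. TGFBR3, the coreceptor betaglycan that presents ligand to TGFBR2, was at 9.92 and 7.19 FPKM in Blank, 10.9 and 10.8 in Lv5NC, 13.52 and 10.99 in OV55666, 13.4 and 12.1 in Lv3NC and 15.1 and 13.4 in KD553. Blank 1 was close to the lowest virus libraries and Blank 2 lower. TGFBR3 rose in KD553 against Blank (0.69 ± 0.14, limma adjusted p = 0.0415) and in the 4 virus groups against Blank (0.51 ± 0.11, limma adjusted p = 0.0494). Without Blank 2 the differences fell to 0.48 and 0.30, with an adjusted p of 0.194 and 0.42. The first call was also lost when KD553 1 (adjusted p = 0.13) or KD553 2 (adjusted p = 0.139) was left out and held in 9 of 15 other settings, and the second held in 7 of 21.

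All 18 SMADs and regulators were tested, and 0 passed in any comparison with a virus control or with Blank. FKBP1A, whose protein binds and silences the type I receptor, lay between 243 and 287 FPKM. PMEPA1, an adaptor that keeps SMAD2 and SMAD3 from the receptor, lay between 33.6 and 47.5, and TGIF1, a SMAD corepressor, between 24.5 and 40.0. The median of the role was 0.02 for overexpression and 0.02 for knockdown, beside 0.02 and 0.00 over all genes.

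Of 24 known target genes of TGF-beta, 20 were tested and 0 passed against the virus controls or Blank. POSTN, ELN, NOX4 and EDN1 were below 1 FPKM in every library. COL1A1 lay between 4641 and 5859 FPKM, FN1 between 2356 and 3128 and ACTA2 between 668 and 1247, with the last highest in Blank 2. With overexpression 5 of 20 targets were above and 15 below their level in Lv5NC (median −0.09), and with knockdown 13 were above and 7 below Lv3NC (median 0.09). Of all genes tested, 58.7% were above 0 with overexpression and 50.9% with knockdown. The knockdown counts depended on the control. Against Lv5NC in place of Lv3NC, 9 targets were above and 11 below (median −0.04), beside 57.2% of all genes above 0. Lv3NC itself had 8 targets above and 12 below Lv5NC (median −0.04), beside 59.8% of all genes above 0. The median of the contrast between both effects was −0.16 beside 0.02 over all genes, and 0 of the 20 had an unadjusted p under 0.05 in it. The list was not split by whether TGF-beta induces or represses a gene, so these counts and medians give no direction of signalling.

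CCN2, a matricellular factor also known as CTGF and a much used reporter of TGF-beta signalling, was picked after its values were seen. It was at 162 and 329 FPKM in Blank, 155 and 136 in Lv5NC, 147 and 154 in OV55666, 177 and 172 in Lv3NC and 219 and 245.5 in KD553. Blank 2 was the highest library. In the knockdown CCN2 lay above Lv3NC in both libraries, as did 19.3% of all genes tested. The difference did not pass the test (0.41 ± 0.27 on the log2 scale, limma adjusted p = 0.811). CCN2 had the highest log2 difference of the 20 tested targets in this comparison. Of these targets, 7 lay below Lv3NC, with log2 differences down to −0.67, which is larger in size than that of CCN2.

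**Figure D5:**
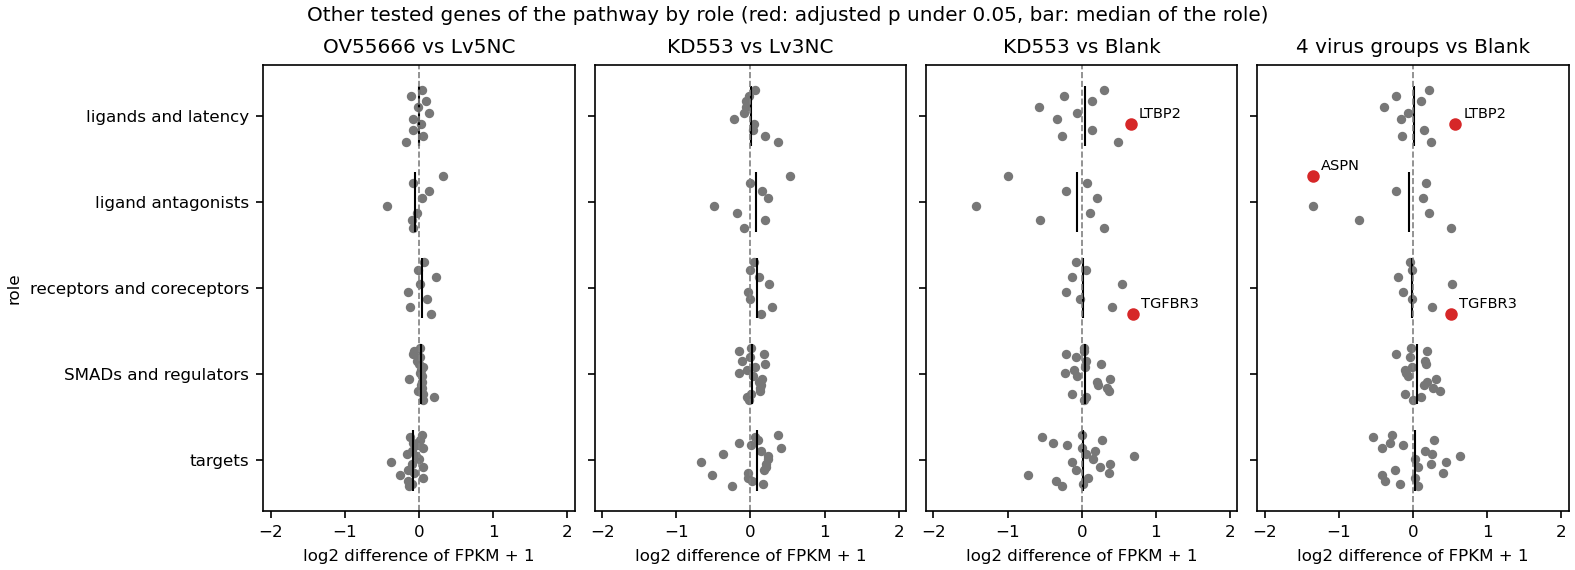
Log2 difference of FPKM + 1 (horizontal axis) for the 64 tested pathway genes other than the members, by role, in 4 comparisons. Each point is a gene, bars are role medians and red marks an adjusted p under 0.05. Points are grey in both comparisons with virus controls, and LTBP2, TGFBR3 and ASPN are red against Blank.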

How the data were processed

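The authors deposited FPKM values for 17197 genes in 10 libraries, with 2 decimals, as the unit in the file headers states. The aligner, the quantification software and the build were not given in the sources used here. Identifiers of 16658 genes matched RefSeq gene identifiers (ARS1.2 table, used for symbols only), and 539 are named BGI_novel. FPKM keep no read number, so the depth is unknown. Sums per library were 440565 to 460423, and libraries of a group correlated with r of 0.990 to 0.994. The KD553 titles and descriptions number the samples differently, so neither column was tied to a numbered sample.

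Values were analysed as log2(FPKM + 1), which understates changes of low genes, keeping the 11340 genes that reached an FPKM of 1 in 2 or more libraries. limma 3.58.1 (R 4.3.3, statmod 1.5.0) fitted group means to all 10 libraries with 5 residual degrees of freedom, trend and robust options. Adjusted p is Benjamini-Hochberg over all genes tested, and a call is an adjusted p under 0.05. The steps were tested on simulated data. Alternatives were pseudocount, filter, scaling, libraries left out, other controls and replicate blocks. Comparisons of the 4 virus groups, KD553 with OV55666 and the alternatives run on the comparisons with Blank were added after seeing the data. The replicate block with the Lv3NC and KD553 numbers exchanged was not planned either.

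The 9 members and the lists were chosen with earlier results of these data known. Of the other pathway genes, the rule names those called and the 3 with the highest mean in each role. CCN2 is described outside this rule. Genes most like a member are the 3 with the highest r. A listed target gene is counted with its role but not reported here by name.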

Additional observations from a re-analysis of the deposited data

How the results depend on the processing

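Against Lv5NC and Lv3NC, 0 members passed under each alternative with those controls. Using Blank as the control gave 286 genes and 2 members for the knockdown and 43 genes and 1 member for the overexpression, and Lv5NC as the control of the knockdown gave 2 genes. Calls over all genes moved more. A pseudocount of 0.1 gave 1 call for the overexpression, 18 for Lv5NC against Blank and 6 for Lv3NC against Blank, and a pseudocount of 0.5 gave 12 and 7 in the last 2. Without the filter the counts were 13 and 7, and 1 between the controls. With an FPKM of at least 5, Lv3NC against Blank had 8. Fitting only the groups compared gave 0 calls for the knockdown, 56 for Lv3NC against Blank and 1 member for the knockdown against Blank (TGFBR2). Leaving out a library gave 0 to 3 calls for the knockdown, 0 to 288 for Lv5NC against Blank and 0 to 292 for Lv3NC against Blank, highest without Blank 1. Members called then ranged from 0 to 2 for the knockdown against Blank and for the 4 virus groups against Blank. Scaling moved the median of all genes by at most 0.022 on the log2 scale. The causes were not tested.

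The replicate numbers do not pair the samples in the labels, and within-group differences over the 11340 genes correlated at 0.50 between Lv5NC and OV55666 and at −0.62 between Lv5NC and KD553. With the replicate block the calls were 1 for the knockdown, 0 for Lv5NC against Blank and 0 for Lv3NC against Blank. With the KD553 numbers exchanged they were 5, 12 and 17. With the Lv3NC and KD553 numbers exchanged, they were 13, 273 and 242, with 1 member for Lv5NC against Blank, 2 for Lv3NC against Blank and 4 for the 4 virus groups against Blank. This last exchange was not planned and matches the signs of the within-group correlations in these same data. Its block thus takes up a spread seen in them, and its higher counts cannot back any call. FPKM do not show which differences the depth limits.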
